A study of Mus musculus with 1087 samples.

Results

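The set described here holds 45 mouse genes of the start and the course of S phase, the part of the cell cycle in which DNA is copied. The genes were chosen by name as a list of known replication genes, and each of the 45 names matched 1 row of a count table of 46078 genes. All 45 reached a mean of 10 CPM (gene counts scaled to the same total in every sample) over the groups, as did 9869 genes in all, which are called measured below. The table comes from single cells of the aorta-gonad-mesonephros (AGM) region of the mouse embryo, where hematopoietic cell clusters form on the wall of the aorta. All groups came from Gata2V/+ embryos, bred from C57BL/6HsdJOla wild-type females and Gata2V/V males, in which the V allele of the hematopoietic factor Gata2 carries the Venus fluorescent reporter, and all cells were labelled KitHi. Of the 1087 cells, 8.00% were E10 G2VInt, 11.96% E11 G2VInt, 25.67% E11.5 G2VInt, 10.95% E11.5 CD27+ and 43.42% E11.5 G2VLo. G2VInt and G2VLo are read here as intermediate and low Venus, and the labels give no Venus gate for CD27+ cells.

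Before S phase a cell loads the Mcm2 to Mcm7 ring onto its replication origins with Cdc6 and Cdt1, a step called licensing. Cyclin E and its kinase partner then help to start replication: Cdc45 and the GINS proteins join the ring to make the active helicase, polymerase alpha with its primase makes the first primers, and the clamp Pcna, set on DNA by the RFC loader, holds the main polymerases in place. Many of these genes are switched on together in late G1 by E2F transcription factors, so their messenger RNA is widely used to see which cells of a population are replicating DNA.

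Embryos, litters and sorts are not named in the labels, and each group is therefore 1 sample without replicates. No test was run, and the values below compare these libraries. Intervals cover counting error only, and because reads were counted without molecular identifiers, PCR copies make them too narrow. The cells held from 117369 to 6999570 reads, with medians of 2121420 reads for E10, 2212900 for E11 and 1892780 for E11.5 G2VInt cells, 621544 in CD27+ cells and 539090 in G2VLo cells. Library numbers fall into separate ranges for the G2VInt groups and for G2VLo, so library range and group cannot be told apart there, whereas CD27+ numbers lie inside the range of G2VLo. The class labels EC, HC1, HC2, U1 and U2 and the cluster numbers are the authors' own. Their markers, given as summed CPM, matched an endothelial EC class (4410 in EC against 942 in HC1 for 5 endothelial genes), a macrophage-rich U1 class (11525 in U1 against 26.99 in HC1) and an HC2 class with myeloid and mast cell genes (1493 in HC2 against 216.9 in HC1). HC2 also had more reads of erythroid genes, with a summed CPM of 545 against 32.8 in HC1. The sample labels give all cells the same source, hematopoietic clusters of the aorta. The members may have been among the genes used to form the clusters, so differences between clusters or classes are not independent of the clustering.

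Because E2F factors bind a short sequence element in front of many of these genes, the promoters were searched for letters of that type. RefSeq promoter windows on GRCm38.p6, from 250 bases before to 50 bases after the start, were matched for 35 of the 45 members. A gene was counted once, over all its windows. The letters TTTCCCGC, TTTCGCGC, TTTGCCGC or TTTGGCGC, on either strand, were found for 12 of these 35 members (34.3%), against 704 of all 27025 genes with windows (2.605%). The 12 were Cdc6, Cdt1, Mcm3, Mcm5, Mcm6, Mcm7, Dtl, Hells, Clspn, Lig1, Pola1 and Rfc3, so 6 of the 12 belong to licensing. CCAAT, the element of the factor NF-Y, was found for 20 of the 35 members (57.1%) and for 41.1% of all genes with windows. A match is a description of letters and not a site shown to be bound. The stretches before the start that hold E2F-type letters are shown for 8 members, 5′ to 3′ on the gene's strand, because these genes include the licensing factors on which several results below turn. Capitals mark the E2F-type letters, and matches that overlap on opposite strands form 1 longer run in Mcm5 and Mcm6.
Cdc6, chr11:98907993-98908040, plus strand: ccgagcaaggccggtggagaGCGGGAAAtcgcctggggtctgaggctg
Mcm5, chr8:75109336-75109387, plus strand: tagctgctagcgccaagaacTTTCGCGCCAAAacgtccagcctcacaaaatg
Mcm6, chr1:128359725-128359835, minus strand: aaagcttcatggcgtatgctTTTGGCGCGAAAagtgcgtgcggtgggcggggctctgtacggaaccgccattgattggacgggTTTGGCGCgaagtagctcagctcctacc
Mcm7, chr5:138172021-138172068, minus strand: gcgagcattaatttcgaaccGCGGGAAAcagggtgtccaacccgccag
Dtl, chr1:191575545-191575572, minus strand: atcagaaagcgtgacgtcagTTTGGCGC
Hells, chr19:38930908-38930955, plus strand: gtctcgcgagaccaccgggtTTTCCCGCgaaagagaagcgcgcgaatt
Pola1, chrX:93632266-93632313, minus strand: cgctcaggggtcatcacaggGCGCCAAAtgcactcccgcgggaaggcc
Rfc3, chr5:151651209-151651238, minus strand: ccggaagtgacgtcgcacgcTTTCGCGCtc
The Mcm6 window held 3 matches, the most of any member, and the matches in Cdt1, Clspn, Lig1 and Mcm3, with a further one in each of Mcm7 and Rfc3, lay at or after the start and are not shown.

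The members together took 8784 CPM in E10, 8091 CPM in E11 and 6386 CPM in E11.5 G2VInt cells, 6049 CPM in CD27+ cells and 6046 CPM in G2VLo cells. The E10 group was the highest for 33 members and the E11 group for 8. The 33 members that were lower at each step of day in G2VInt cells are counted over all cells, and the classes that make up a group also differ by day. No share of all measured genes was taken for these counts, so they do not show a trait particular to the set. Every cell had reads of members, from 360.7 CPM in the lowest G2VLo cell to 18156 CPM in the highest. Per kilobase of exon, which allows levels of different genes to be compared, the licensing ring led: Mcm3 had a mean of 139.9 CPM per kilobase over the groups, Mcm6 133.2 and Mcm5 117.96, and these lay at percentiles 96.7, 96.5 and 95.8 of the measured genes. Wdr76 (2.94), E2f8 (4.84) and Clspn (5.35), an adaptor of the checkpoint kinase Chek1, were the lowest.

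Licensing genes took the largest share of the summed reads. Mcm6 (ENSMUSG00000026355, chromosome 1, 128331590 to 128359664, minus strand, GRCm38), a subunit of the ring, had 814 CPM at E10, 723 CPM at E11 and 554 CPM in E11.5 G2VInt cells, 494 in CD27+ cells and 523 in G2VLo cells. The other ring genes had the same 2 groups on top: Mcm2 ran between 374.2 in CD27+ and 586 CPM at E10, Mcm3 between 447.5 in G2VLo and 661 at E10, Mcm4 between 223.5 in CD27+ and 346.3 at E10, Mcm5 between 381.6 in CD27+ and 572 at E10, and Mcm7 between 216.02 in G2VLo and 347.2 at E10. The loader Cdc6 (ENSMUSG00000017499, chromosome 11, 98907801 to 98923940, plus strand) was less abundant, with 85.6 CPM at E10, 73.8 at E11, 51.3 at E11.5 G2VInt, 43.7 in CD27+ and 61.8 in G2VLo cells. Cdt1, its partner, varied less, between 156.2 CPM in G2VLo and 200.03 CPM at E10. Over the 16 cluster-by-group sets with at least 20 cells, Mcm6 ran from 322.9 CPM in cluster 5 of G2VLo, a U1 cluster, to 905 CPM in cluster 7 at E10, and Cdc6 from 39.2 CPM in EC cluster 1 of E11.5 G2VInt to 99.4 CPM in HC2 cluster 9 of G2VLo. Across the same sets Mcm2 spanned 230.2 to 609.7 CPM, Mcm3 304.4 to 715, Mcm4 178.5 to 362.2, Mcm5 301.6 to 626, Mcm7 149.96 to 395.02 and Cdt1 102.1 to 249.98 CPM. Among these sets the ring genes were lowest in U1 or EC clusters and highest in HC1 clusters of E10 or E11, while Cdc6 and Cdt1 peaked in cluster 9. HC2 cluster 11 and the smaller sets of other HC2 clusters hold fewer than 20 cells and are left out. HC2 cells taken as a class went above the highest of these sets for each licensing gene but Mcm6. At E10 (8 HC2 cells) Cdc6 had 211.3 CPM and Mcm4 523.3, and at E11 Cdt1 had 276.9 and Mcm5 681.9.

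The cyclin E and E2F genes were low in abundance and differed widely between clusters. Ccne1 (ENSMUSG00000002068, chromosome 7, 38097984 to 38107534, minus strand), which encodes cyclin E1, had 69.9 CPM at E10, 61.2 at E11, 61.9 at E11.5 G2VInt, 57.6 in CD27+ and 56.3 in G2VLo cells. These whole-group values lie close together. All cluster spans in this paragraph are over the 16 cluster-by-group sets with at least 20 cells. In these sets Ccne1 ran from 17.2 CPM in HC2 cluster 10 at E11 to 99.2 CPM in HC1 cluster 7 of E11.5 G2VInt. This was the widest span of any member in those sets (5.78-fold). Smaller HC2 clusters are left out: HC2 cells taken as a class had 133.9 CPM at E10 (8 cells) and 113.4 CPM at E11.5 G2VInt. Ccne2, which encodes cyclin E2, ran from 33.8 CPM at E11.5 G2VInt to 42.8 CPM in G2VLo, and from 23.4 CPM in cluster 7 at E11 to 61.1 CPM in EC cluster 1 of G2VLo. E2f1, an activating E2F factor, was the only member of this role that was highest in CD27+ cells, with 40.8 CPM against 23.6 CPM in G2VLo, and its clusters ran from 9.71 CPM in cluster 9 of G2VLo to 41.1 CPM in cluster 8 at E11. E2f8, a repressor of the same family, had 37.98 CPM at E10, 33.1 at E11, 17.1 at E11.5 G2VInt, 20.8 in CD27+ and 22.8 in G2VLo cells.

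Helicase and primer genes lay between these. Gins1, a GINS subunit, had the highest level per kilobase of the helicase activation role (34.1) and Mcm10, which helps the helicase start, the lowest (12.3). Their patterns differed: Gins1 stayed between 45.3 CPM at E11.5 G2VInt and 55.2 CPM in CD27+ cells, whereas Mcm10 had 140.5 CPM at E10 and 119.3 CPM at E11 against 69.5 to 72.95 CPM in the E11.5 groups. In the primase and polymerase alpha role, the primase gene Prim1 led per kilobase (30.9) and the catalytic subunit gene Pola1 was lowest (8.53). Prim1 ran from 98.9 CPM in CD27+ to 152.5 at E10, and Pola1 from 60.7 CPM at E11.5 G2VInt to 85.5 CPM at E11.

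The clamp gene Pcna (ENSMUSG00000027342, chromosome 2, 132249162 to 132253314, minus strand) had 140.99 CPM at E10, 122.6 at E11, 120.02 at E11.5 G2VInt, 149.4 in CD27+ and 140.6 in G2VLo cells. It is 1 of 3 members with their highest level in CD27+ cells. Its processed pseudogene Pcna-ps2 took 119.8 CPM on average against 134.7 for Pcna, so the share of reads that the counting gave to each is uncertain. Of the loader, Rfc4 led per kilobase (65.1) and Rfc5 was lowest (29.1). Rfc5 ran from 97.5 CPM in G2VLo to 179.9 CPM at E10, and Rfc4 from 84.1 CPM in G2VLo to 118.7 CPM at E10. Lig1, the ligase that joins Okazaki fragments, had 165.5 CPM in G2VLo to 263.3 CPM at E11, while Fen1, the nuclease that trims them, had only 8.74 to 18.3 CPM.

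Rrm2 (ENSMUSG00000020649, chromosome 12, 24708241 to 24714146, plus strand), the regulated subunit of ribonucleotide reductase, had 281.8 CPM at E10, 261.9 at E11, 208.7 at E11.5 G2VInt, 177.5 in CD27+ and 242.3 in G2VLo cells. It had the largest SD of the log2 level among cells of any member, 1.96, against 0.67 for Fen1. These SDs are not at like levels: the cell median was 133.9 CPM for Rrm2. For Fen1 it was 8.59 CPM, below the 10 CPM added before log2. Over the sets with at least 20 cells, Rrm2 ran from 143.9 CPM in cluster 7 at E11 to 310 CPM in HC2 cluster 9 of G2VLo. HC2 cells taken as a class had more, 525.9 CPM at E10 (8 cells) and 351.4 CPM at E11. Tyms, thymidylate synthase, ran from 147.1 CPM in G2VLo to 235.99 CPM at E11. Over the sets with at least 20 cells it ran from 120.99 CPM in cluster 5 of G2VLo to 267.5 CPM in cluster 8 at E11. Of the histone supply genes, Chaf1b, a histone chaperone subunit, led per kilobase (25.6) and had 102.6 CPM in CD27+ to 147.6 at E10, and Atad2, a chromatin ATPase, was lowest (5.66) with 65.6 CPM at E11.5 G2VInt to 120.7 at E10. Of the fork checkpoint genes, Tipin, a fork protection factor, led (107.5) with 173.5 to 241.8 CPM over the groups. Ung, a uracil glycosylase that removes uracil from new DNA, was nearly level over the groups, at 71.1 CPM in CD27+ to 87.4 at E11. Within G2VLo, however, it ran from 37.5 CPM in cluster 5 to 125.996 CPM in cluster 7, among clusters with at least 20 cells.

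The other members are given by their lowest and highest group. Of the helicase genes, Cdc45 ran from 79.8 CPM in CD27+ to 118.1 CPM at E10 and Gins2 from 66.2 CPM at E11.5 G2VInt to 88.3 CPM at E10. Pola2, the regulatory subunit of polymerase alpha, ran from 72.4 CPM in CD27+ to 137.1 CPM at E11, and Prim2, the large primase subunit, from 66.4 CPM in G2VLo to 98.2 CPM at E10. The loader genes Rfc2 and Rfc3 were both lowest in G2VLo, with 223.7 and 96.2 CPM, and had 353.7 CPM at E10 and 123.96 CPM at E11 as their highest values. Rrm1 had 299.1 CPM in CD27+ and 577.6 CPM at E10. Slbp, which binds the ends of histone messages, had 133.99 CPM at E11.5 G2VInt and 162.99 CPM at E10, Chaf1a 46.8 CPM in CD27+ and 115.9 CPM at E10, and Hells, a chromatin remodeller, 75.3 CPM at E11.5 G2VInt and 117.3 CPM at E10. Rpa2, which coats single strands, ran from 189.997 CPM in CD27+ to 286.3 CPM at E10, Dtl from 107.3 CPM in G2VLo to 202.3 CPM at E10, and Usp1, a deubiquitinase that acts on Pcna, from 80.2 CPM at E11.5 G2VInt to 110.9 CPM at E10. Exo1 (64.4 to 124.9 CPM), Blm (35.2 to 72.8 CPM) and Clspn (31.6 to 50.1 CPM) were lowest in G2VLo, Wdr76 (10.8 to 27.6 CPM) in CD27+ and Chek1 (34.5 to 56.5 CPM) at E11.5 G2VInt. Clspn and Chek1 were highest at E11, and Exo1, Blm and Wdr76 at E10.

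HC1 cells had more reads of the set than EC cells at E11.5 in the G2VInt gate. The summed members had 7459.1 CPM in HC1 (36.56% of the gate's cells) and 5166 CPM in EC (43.73%), a log2 ratio of 0.53. Per cell the median was 6882 CPM in HC1 (quartiles 4474 and 10069) and 4625 CPM in EC (3461 and 6771), so the ranges between the quartiles overlap. All members but Rrm2 were higher in HC1, as were 64.2% of all measured genes. At least 1.5-fold higher were 22 of 45 members, where 24.4% of all measured genes were, and 0 of 45 were that much lower, against 15% of all. All 22 were also at least 1.2-fold higher when each cell counted equally and separately in the cells with lower and with upper library numbers of each class. The 6 highest were led by Rfc5 (ENSMUSG00000029363, chromosome 5, 117378103 to 117389047, minus strand), a clamp loader subunit, with 165.6 CPM in HC1 and 68.4 CPM in EC (log2 ratio 1.28, counting interval 1.25 to 1.30). E2f8 had 23.2 CPM in HC1 and 11.2 in EC (1.06), Mcm10 92.2 and 46.99 (0.97), Ccne1 77.3 and 40.2 (0.94), the nuclease gene Exo1 97.5 and 52.4 (0.90) and Mcm7 312.1 and 168.9 (0.89). These 6 genes come from 5 roles, and of the nuclease and checkpoint role 7 of 10 members passed the fold. Rrm2 had 170.3 CPM in HC1 and 201.7 CPM in EC. The median log2 ratio was 0.57 over members and 0.20 over all measured genes; with TMM scaling, which sets the bulk of genes level and takes 0.19 from every log2 ratio here, the count was 8. Of 54 other replication genes 24 were at least 1.5-fold higher, the nucleotide pyrophosphatase gene Dctpp1 (146.5 CPM in HC1, 58.1 in EC) and the nuclease gene Dna2 (107.1 and 45.998) among them, and 1 was lower, the E2F repressor gene E2f7 (19.8 and 39.7). Of 32 G2 and mitosis genes 14 were higher by that fold.

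HC2 cells had slightly more reads of the set than HC1 cells. In E11.5 G2VInt cells the sums were 8845 CPM in 44 HC2 cells and 7459.1 CPM in the HC1 cells (log2 ratio 0.25), and 0.06 when each cell counted equally. At least 1.5-fold higher in HC2 were 4 of 45 members, against 11.2% of measured genes, and 0 were lower, against 26.7%; the count was 2 when each cell counted equally and 7 with TMM scaling. Cdc6 had 89.7 CPM in HC2 and 47.8 CPM in HC1 (0.91, counting interval 0.86 to 0.95), Rrm2 305.9 and 170.3 (0.84), Ung 136.4 and 84.3 (0.69) and Rfc2, a clamp loader subunit, 491 and 318.7 (0.62). These 4 genes take part in licensing, nucleotide supply, uracil removal and clamp loading. The lowest member was Rrm1, the large subunit of ribonucleotide reductase, with 386.7 CPM in HC2 and 462.2 CPM in HC1. The median over members was 0.22 and over all measured genes -0.11. Of the other replication genes 8 were higher, led by Orc1, an origin recognition subunit (27.4 and 12.5 CPM), and Asf1b, a histone chaperone (124.98 and 60.3), and 4 lower. Of the 32 mitosis genes 0 were higher and 10 lower by that fold. The HC2 sums differed by cluster: 10968 CPM in 13 cells of cluster 11, 7627 CPM in 23 cells of cluster 10 and 7783 CPM in 8 cells of cluster 9.

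U1 cells had fewer reads of most members, and of most measured genes (29.5% had a positive ratio), than HC1 cells of the G2VLo gate. The members summed to 4597 CPM in 77 U1 cells and 7632 CPM in HC1 (34.53% of the gate's cells), a log2 ratio of -0.73. Cell medians were 3841 and 6625 CPM. At least 1.5-fold lower were 25 of 45 members, against 47.5% of all measured genes, and 0 of 45 were that much higher, against 14.7%. The median was -0.78 over members and -0.53 over all genes; TMM scaling added 0.40 to every log2 ratio, which gave -0.33 for the sum and 20 members past the fold. Ung (ENSMUSG00000029591, chromosome 5, 114130386 to 114139323, plus strand) had 35.8 CPM in U1 and 120.8 CPM in HC1 (-1.75, counting interval -1.83 to -1.67). Next came Dtl, part of the ligase that removes Cdt1 in S phase (56.8 in U1 and 141.3 in HC1, -1.31), Mcm2 (231.97 and 569, -1.30), Mcm6 (317.8 and 771, -1.28), Chaf1b (59.8 and 141.9, -1.25) and Tipin (91.6 and 208.8, -1.19). The roles did not move alike. All 8 licensing genes and 8 of 10 fork checkpoint genes were past the fold, with log2 ratios of their sums of -1.02 and -1.10, while helicase activation (0.03) and Okazaki fragment joining (-0.06) were close to 0 before TMM scaling. Gins1 was the highest member, with 69.9 CPM in U1 and 50.96 CPM in HC1 (0.46), and Mcm10 followed (0.37). In the same comparison 17 of 32 mitosis genes were at least 1.5-fold higher in U1 (median 0.63), and 27 of 54 other replication genes were lower and 1 higher (median -0.58).

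**Figure D1:**
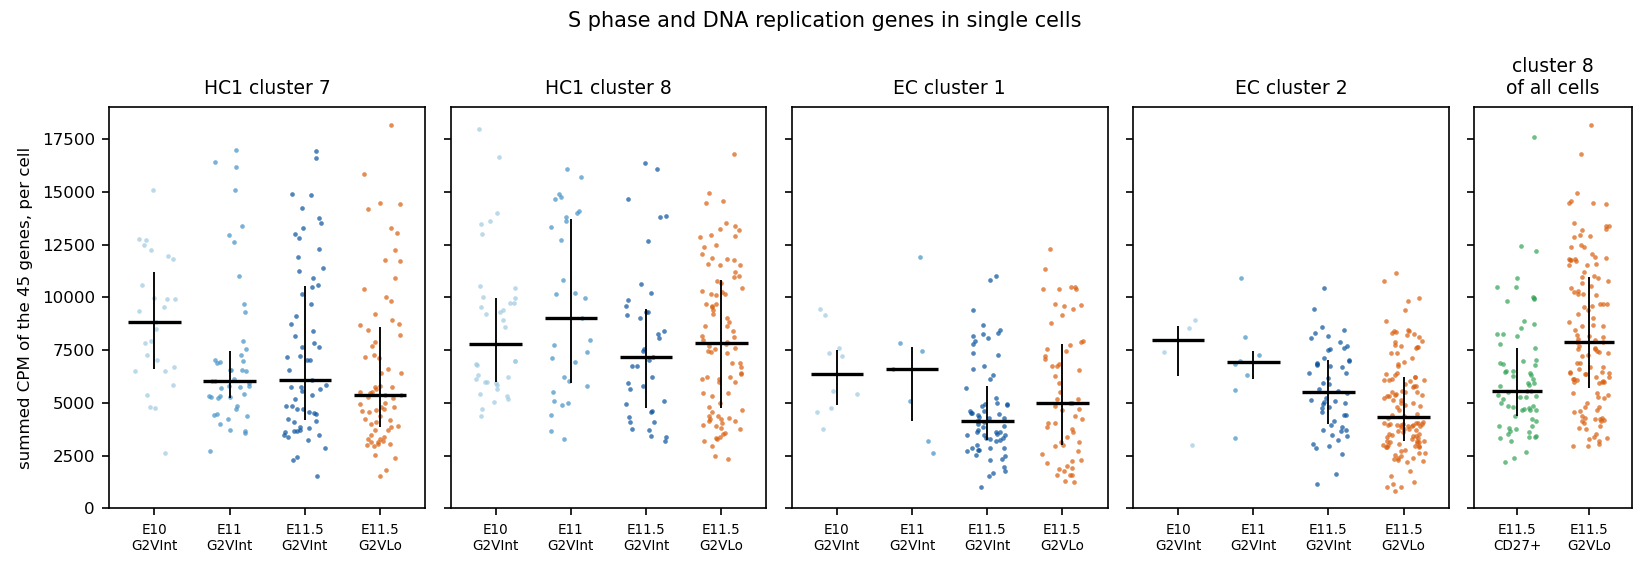
Summed CPM of the 45 genes in each cell (y axis, linear) for the groups on the x axis, in clusters 7, 8, 1 and 2 of the clustering without CD27+ cells and in cluster 8 of all cells; each point is a cell, thick lines are medians and thin lines run from the lower to the upper quartile. Cells of every group spread widely, and the CD27+ median of 5562 CPM lies below the 7870 CPM of G2VLo.

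By day, the set was highest at E10 within HC1 cells. The sums were 8954 CPM at E10 (63 cells), 7969 CPM at E11 (77 cells) and 7459.1 CPM at E11.5 in G2VInt HC1 cells. Cell medians were 8588, 6551 and 6882 CPM in this order of days. At each step lower were 23 of 45 members, where 24.04% of all measured genes were. At E11 against E10, 0 members passed 1.5-fold in either direction, against 12.2% of genes higher and 4.94% lower, and 1 did with the lower library numbers. The lowest were Chaf1b, with 109.7 CPM at E11 and 145.997 CPM at E10 (-0.41, counting interval -0.44 to -0.38), and Cdc6 with 56.1 and 74.02 CPM (-0.40). The highest was Clspn with 48.5 CPM at E11 and 40.8 CPM at E10 (0.25). At E11.5 against E11, 2 members were lower by 1.5-fold (5.81% of genes were) and 0 higher (3.05%); 1 member was past the fold with TMM scaling or when each cell counted equally. E2f8 had 23.2 CPM at E11.5 and 40.4 CPM at E11 (-0.80, counting interval -0.85 to -0.74), and Atad2 78.1 and 117.6 CPM (-0.59); Ccne1 was highest with 77.3 and 61.02 CPM (0.34).

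Over the whole interval, E11.5 against E10, 6 members of HC1 were at least 1.5-fold lower (8.43% of genes were) and 0 higher (10.7%). They were Blm, a helicase of recombination repair (43.8 CPM at E11.5 and 79.4 at E10, -0.86), E2f8 (23.2 and 38.6, -0.74), Mcm10 (92.2 and 150.8, -0.71), Atad2 (78.1 and 126.5, -0.70), Wdr76 (19.8 and 30.9, -0.64) and Cdc6 (47.8 and 74.02, -0.63). None of these 6 is a subunit of the Mcm2 to Mcm7 ring, whose members were lower by log2 ratios between -0.19 for Mcm5 and -0.35 for Mcm4. Ccne1 was the highest, with 77.3 CPM at E11.5 and 61.6 CPM at E10 (0.33), followed by E2f1 (34.2 and 29.4, 0.22), but the clusters went opposite ways: Ccne1 had 0.73 in cluster 7 and -0.55 in cluster 8, and E2f1 0.40 and -0.13. The median was -0.27 over members and -0.04 over all genes. Both HC1 clusters had a lower sum at E11.5 than at E10, but in different steps: cluster 7 had 9110, 7097 and 7605 CPM and cluster 8 had 8831, 9100 and 7231 CPM in order of days. EC cells had 6718, 6961 and 5166 CPM, with 14 cells at E10 and 15 at E11. In EC cluster 1, with 10, 7 and 68 cells, 18 members were at least 1.5-fold lower at E11.5 than at E10 (11.3% of genes were), led by Dtl with 85.4 CPM at E11.5 and 226.5 CPM at E10. HC2 cells had 10738, 8802 and 8845 CPM, from 8, 36 and 44 cells.

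**Figure D2:**
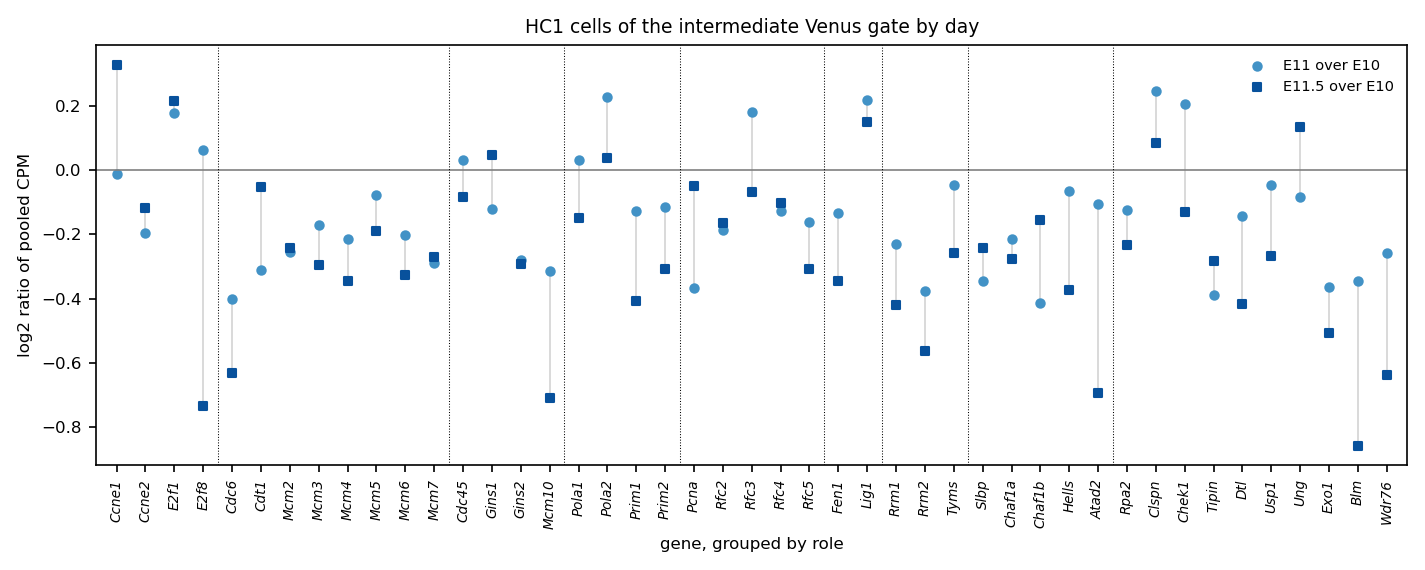
Log2 ratio of pooled CPM (y axis) of E11 over E10 (circles) and of E11.5 over E10 (squares) for each member (x axis, grouped by role, dotted lines between roles) in G2VInt HC1 cells. Most points lie below 0; the lowest square is Blm at -0.86 and the highest Ccne1 at 0.33.

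Between the Venus gates at E11.5, the set differed in opposite directions in 2 pairs of clusters. The log2 ratio of the sum, G2VInt over G2VLo, was 0.16 in HC1 cluster 7 and 0.20 in EC cluster 2, but -0.18 in HC1 cluster 8 and -0.26 in EC cluster 1. The gates also differ in depth and in library range, which cannot be told apart from the gate, and mitochondrial genes took 2.50% to 3.28% of the reads in G2VInt cells of these clusters against 5.57% to 7.22% in G2VLo cells (medians); their part in the differences was not tested. TMM scaling took 0.11 from every log2 ratio in clusters 7 and 8, 0.09 in EC cluster 1 and 0.15 in EC cluster 2. It turned the direction of none of the 4 sums, but left only 0.0466 in HC1 cluster 7 and 0.0491 in EC cluster 2. HC1 cluster 8 then had -0.29 and EC cluster 1 -0.35. Without TMM scaling, the sum in HC1 cluster 8 was -0.39 with lower and 0.0666 with upper library numbers.

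In HC1 cluster 7 the members had 7605 CPM in 63 G2VInt cells and 6830 CPM in 71 G2VLo cells. At least 1.5-fold higher were 5 of 45 members (13.8% of measured genes were) and 0 were lower (4.75%); with the lower library numbers 9 were past the fold in either direction. Clspn (ENSMUSG00000042489, chromosome 4, 126556935 to 126593903, plus strand) had 50.7 CPM in G2VInt and 27.6 CPM in G2VLo (0.88, counting interval 0.77 to 0.98), Ccne1 99.2 and 57.1 (0.80), Tyms 230.1 and 135.2 (0.77) and Rfc4 99.5 and 64.8 (0.62). Lig1 also passed the fold (0.59) but had only 0.17 with the upper library numbers. Cdc6 was the lowest, with 50.9 CPM in G2VInt and 75.6 CPM in G2VLo (-0.57). The median was 0.14 over members and 0.13 over all genes, so the members lay with the bulk of genes. In these cells 24 of 32 mitosis genes were at least 1.5-fold higher (median 0.78), and of the other replication genes 12 were higher, led by the helicase gene Recql4 (26.8 CPM in G2VInt and 9.93 in G2VLo) and Ticrr, which helps origins fire (31.8 and 12.7). The origin recognition gene Orc1 (8.92 and 14.96) was lower.

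In HC1 cluster 8 the order was the other way. The members had 7231 CPM in 39 G2VInt cells and 8207.1 CPM in 92 G2VLo cells, and 4 of 45 were at least 1.5-fold lower (6.15% of genes were) and 0 higher (13.1%); past the fold in either direction were 15 in cells with lower numbers and 10 in those with upper numbers. Ccne2 (ENSMUSG00000028212, chromosome 4, 11191351 to 11204779, plus strand) had 23.7 CPM in G2VInt and 52.8 CPM in G2VLo (-1.16, counting interval -1.25 to -1.06), Ccne1 43.2 and 80.5 (-0.90), Cdc6 43.004 and 77.9 (-0.86) and Ung 67.98 and 117.1 (-0.78). All 4 were also lower in the cells with lower and in those with upper library numbers, by less in the upper (-0.47 for Ccne2, -0.55 for Ccne1, -0.30 for Cdc6 and -0.29 for Ung). Lig1 was the highest member, with 249.7 CPM in G2VInt and 187.9 CPM in G2VLo (0.41). The median was -0.16 over members and 0.14 over all genes. The sum depended on which libraries were used: its log2 ratio was -0.39 in cells with lower and 0.07 in cells with upper library numbers, and -0.04 by the authors' clustering of all cells. Mitosis genes were higher here as in cluster 7, 24 of 32 past the fold with a median of 0.91, while of the other replication genes 6 were higher, led by cyclin A2, Ccna2 (452.3 and 253.4 CPM), and 3 lower, led by the clamp loader gene Dscc1 (18.1 and 34.9).

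In EC cluster 1, 9 of 45 members were at least 1.5-fold lower in G2VInt cells (4.25% of genes were) and 0 higher (12.2%). The sum was 4763 CPM in 68 G2VInt cells and 5693 CPM in 60 G2VLo cells. Ccne2 had 26.5 CPM in G2VInt and 61.1 CPM in G2VLo (-1.21, counting interval -1.28 to -1.13), Ccne1 38.2 and 75.9 (-0.99), E2f8 9.63 and 18.3 (-0.93), Clspn 18.2 and 32.2 (-0.82), Cdc45 55.9 and 94.7 (-0.76) and the checkpoint kinase gene Chek1 21.97 and 35.9 (-0.71). Atad2 (-0.71), Rrm2 (-0.70) and Pcna (-0.59) followed, and all 9 were lower in both sets of library numbers. Cyclin E and E2F genes were thus the lowest role, with 91.2 CPM in G2VInt and 171.7 CPM in G2VLo for its 4 members. Of these 4, E2f1 was not lower (16.9 and 16.4 CPM). Licensing was closer, with 2022 and 2267 CPM. Chaf1a was the highest member (69.1 and 57.3, 0.27). The median was -0.32 over members and 0.12 over all genes. Of the other replication genes 5 were lower and 0 higher, and 6 of 32 mitosis genes were lower and 0 higher. By the clustering of all cells the log2 ratio of the sum was -0.09.

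In EC cluster 2 0 members passed the fold in either direction, against 10.2% of genes higher and 2.08% lower, but 5 did in cells with lower numbers and 1 in those with upper numbers. The sum was 5657 CPM in 54 G2VInt cells and 4933 CPM in 26.27% of the G2VLo cells, and the medians were 0.20 over members and 0.17 over all genes. Blm was the highest, with 41.4 CPM in G2VInt and 28.5 CPM in G2VLo (0.54, counting interval 0.47 to 0.61), and E2f8 the lowest (13.03 and 15.03, -0.21). Ccne1, which differed in the other 3 clusters, had 42.5 CPM in G2VInt and 39.8 CPM in G2VLo.

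**Figure D3:**
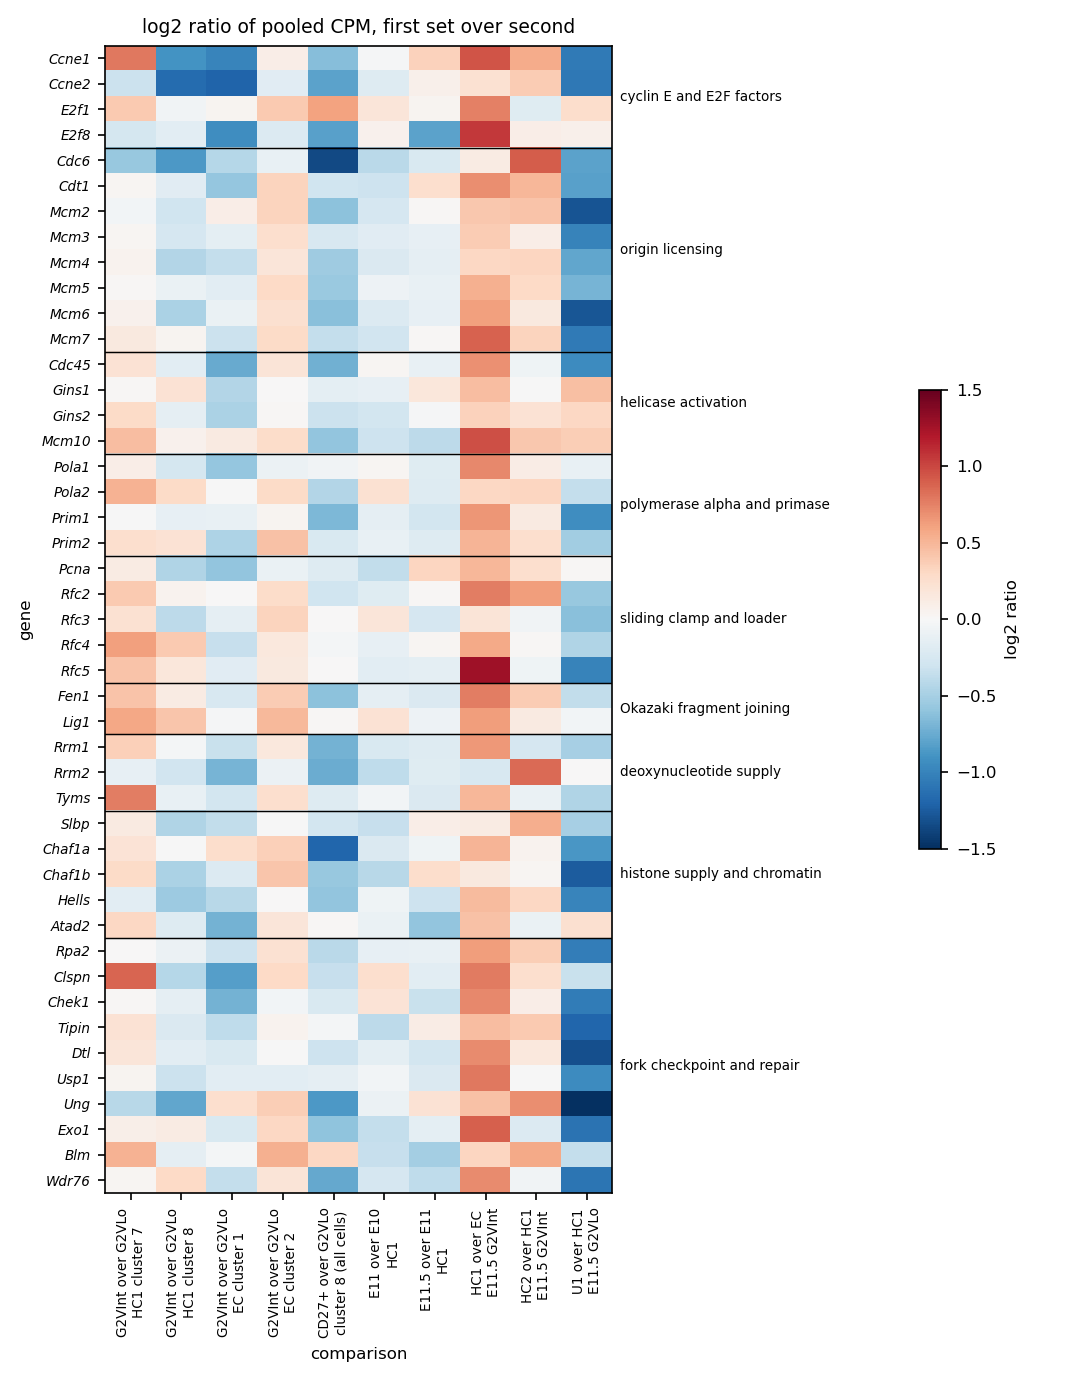
Log2 ratio of pooled CPM of each member (rows, by role) in each comparison (columns, named first set over second); the colour scale runs from lower (blue) to higher (red) in the first set and ends at 1.5 on either side. Ccne1 is red in HC1 cluster 7 and blue in HC1 cluster 8 and EC cluster 1, and 37 of the 45 members are below 0 in the U1 column, with Gins1, Mcm10 and Gins2 the farthest above 0.

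CD27+ cells had fewer reads of the set than G2VLo cells in cluster 8 of all cells, which holds 57.98% of the CD27+ cells. The sums were 6339 CPM in 69 CD27+ cells and 8470 CPM in 26.06% of the G2VLo cells, a log2 ratio of -0.42. Per cell the median was 5562 CPM in CD27+ (quartiles 4365 and 7594) and 7870 CPM in G2VLo (5700 and 10974). At least 1.5-fold lower were 17 of 45 members (9.41% of measured genes were) and 1 was higher (6.51%). Cdc6 had 35.5 CPM in CD27+ and 90.6 CPM in G2VLo (-1.35, counting interval -1.43 to -1.27), Chaf1a, the large subunit of the chromatin assembly factor, 47.4 and 107.9 (-1.19), Ung 71.3 and 130 (-0.86), Ccne2 31.5 and 55.1 (-0.81), Wdr76 12.1 and 20.5 (-0.76) and Rrm2 150.5 and 252.2 (-0.75). Of the 17, 16 were lower by at least 1.2-fold under each check; E2f8 (-0.82) was not. They came from 8 of the 9 roles, the exception being the clamp and loader, with 790.4 CPM in CD27+ and 875 CPM in G2VLo and 0 of 5 members past the fold. E2f1 was the 1 higher member, with 44.6 CPM in CD27+ and 29.3 CPM in G2VLo (0.61), but 0.21 with the lower library numbers. The median was -0.36 over members and -0.05 over all genes. Of the other replication genes 12 were lower and 0 higher, led by the helicase gene Brip1 (11.45 and 24.004 CPM) and E2f2 (6.26 and 12.8), and among them was Uhrf1, which carries DNA methylation over to new strands (203.5 and 347.9). Mitosis genes stood the other way: 27 of 32 had positive ratios, 5 past the fold, with a median of 0.25. The sum was lower in CD27+ cells with lower (-0.55) and upper library numbers (-0.32), and 21 and 11 members were past the fold in either direction. Mitochondrial genes took 8.44% of the reads in CD27+ cells and 5.93% in G2VLo cells (medians), and their part in the difference was not tested.

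Across the 1087 cells the members varied together. After the mean of each group and cluster was taken out of log2(CPM + 10), each of the 990 pairs of members had a positive Pearson correlation, with a median of 0.34 and 67 pairs at 0.5 or more. Cells share group, library range and depth to a degree, so these are descriptions. The closest pairs were Pcna with Rrm2 (0.64), Cdc45 with Rrm2 (0.62) and Mcm3 with Mcm5 (0.61), and the least alike were Ung and Blm (0.01). The correlation of a member with the sum of the others ran from 0.29 for Blm to 0.77 for Pcna. Of the 100 genes most correlated with the summed set among 9869 measured genes, 42 were members, each of which is part of the sum itself. The other members were Rfc3, Gins1 and Blm. Members with E2F-type letters had a median correlation with the others of 0.61 (12 genes), with a range from 0.40 to 0.72. Those with a window but without the letters had 0.54 (23 genes), with a range from 0.29 to 0.77, so the ranges overlap.

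The members differed in how they moved with the 32 G2 and mitosis genes. Ung ran against them (-0.37), and the ring genes of licensing were divided: Mcm6 (-0.14), Mcm2 (-0.12) and Mcm4 (-0.11) had negative values, and Mcm3 (0.03), Mcm5 (0.09) and Mcm7 (0.24) positive ones. Rrm1 (0.49), Mcm10 (0.44), Rfc5 (0.40), Tyms and Rfc4 (0.39 each) and Rrm2 (0.38) ran with them. Correlation with the other members did not follow this order, since Mcm6 (0.68) and Rrm2 (0.72) were both close to the rest of the set. At 100000 reads per cell the share of cells with a read ran from 42.3% for E2f8 (95% interval 39.4 to 45.3) to 98.4% for Mcm6 (97.5 to 99.1), and for Ccne1 it was 51.98% (48.96 to 54.98).

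**Figure D4:**
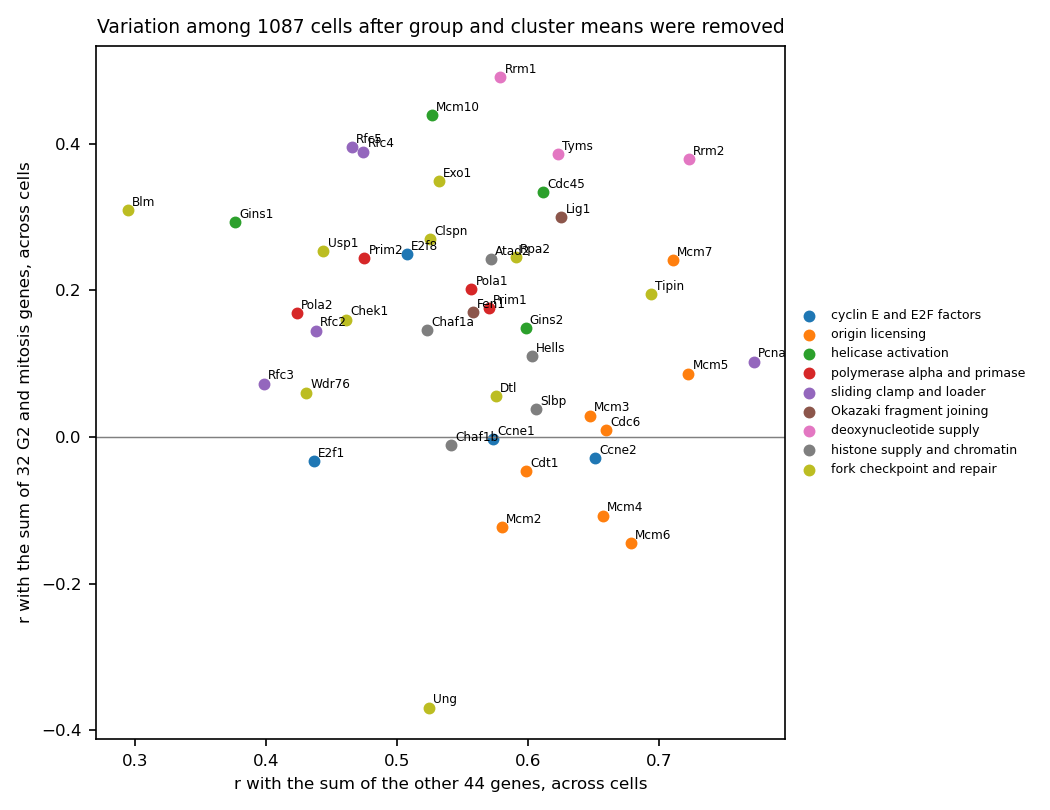
Correlation of each member with the sum of the other members (x axis, Pearson r across 1087 cells) against its correlation with the sum of 32 G2 and mitosis genes (y axis), coloured by role. Ung lies alone at the bottom (-0.37), the ring genes of licensing lie between -0.14 (Mcm6) and 0.24 (Mcm7), and Rrm1 is at the top (0.49).

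Within clusters the sum of the set and that of mitosis genes were not simply related. Their correlation was -0.82 in cluster 8 at E10 (36 cells) and in cluster 9 of G2VLo (23 cells), -0.43 in cluster 8 at E11 (31 cells) and -0.14 in cluster 8 of G2VLo (92 cells). It was 0.74 in cluster 10 of E11.5 G2VInt (23 cells), 0.40 in cluster 5 of G2VLo (65 cells) and between 0.18 and 0.35 in the EC clusters of E11.5. In the plots of single cells the points follow an arc in several sets: cells with few reads of mitosis genes span low to high sums of the set, and cells with many reads of mitosis genes have low to middle sums. The sum of the set also moved with the depth of the cell in some of these sets, with a correlation of -0.50 in cluster 9 of G2VLo and 0.53 in cluster 10 of E11.5 G2VInt; the part of depth was not tested.

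**Figure D5:**
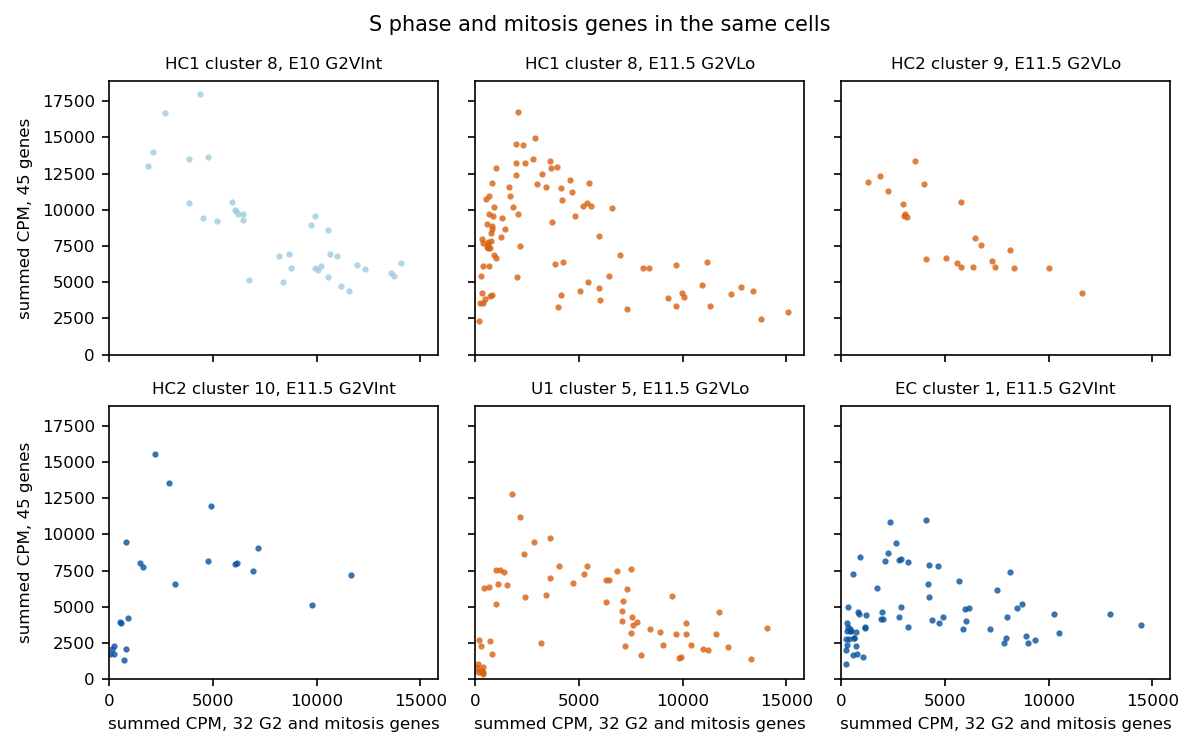
Summed CPM of the 45 genes (y axis) against summed CPM of 32 G2 and mitosis genes (x axis) in single cells, 1 point per cell, for 6 cluster-by-group sets on the same linear axes. In HC1 cluster 8 of G2VLo (r = -0.14, 92 cells) the points climb at the left edge and come down to the right, whereas at E10 (r = -0.82, 36 cells) the left limb is missing.

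Of genes outside the set that are reported here, those whose pattern across cells was most like its sum were the pseudogene Pcna-ps2 (r = 0.80), Uhrf1 (0.71), the pseudogene Gm5648 (0.67), Tk1 (0.66), Dut (0.66), the pseudogene Gm6091 (0.62), Nasp (0.60), Gmnn (0.60) and Orc6 (0.59). Tk1 and Dut encode enzymes of thymidine nucleotide supply, Nasp a histone chaperone, Gmnn the inhibitor of Cdt1 and Orc6 an origin recognition subunit. The median correlation was 0.39 over 54 other replication genes, 0.12 over 15 measured D cyclins and kinase inhibitors, 0.07 over 32 G2 and mitosis genes and 0.02 over all 9824 measured genes outside the set.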

How the data were processed

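Single cells were sorted, made into Nextera XT libraries and sequenced on a HiSeq instrument, per the labels' protocols. The authors deposited raw read counts per gene and cell, made with HTSeq 0.6.0 on GRCm38 per the submitters' processing notes; the aligner, the annotation release and the strand setting are not given in the sources used here. There were 87 E10, 130 E11 and 279 E11.5 G2VInt cells, 119 CD27+ and 472 G2VLo cells; E11.5 G2VInt HC1 had 102 and EC 122 cells, and G2VLo HC1 had 163, cluster 2 had 124 and cluster 8 of all cells 123. Cluster numbers and class names are the authors', per the labels. Reads of a group and cluster were summed and divided by all gene counts (CPM). Poisson intervals for levels, and conditional binomial intervals for ratios, are exact at 95%. The labels name no replicates and give no pairing, so no test was run; a member is called at 1.5-fold. For a check, the cells of each compared set (a group and cluster or class) were split into lower and upper library numbers. Cells were thinned to 100000 reads for shares (Clopper-Pearson intervals). Correlations used log2(CPM + 10), less the mean of each of 47 sets of group and cluster, over 1087 cells. No doublet caller was run.

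The 45 members, their roles and the other lists were chosen with earlier results of these data known. All members are accounted for by role. In each comparison the text names up to 6 of the highest and 6 of the lowest past 1.5-fold that kept at least 1.2-fold by mean CPM per cell and with lower and upper library numbers, and otherwise the most extreme member. Lists other than the members are described by counts, with examples by the same fold; these choices of examples were made after their values were seen. Alternatives were the mean CPM per cell, mitochondrial genes left out, TMM factors, lower and upper library numbers, the median of members, the authors' clustering of all cells and no filter on low values. Some genes outside the set are not reported here by name. Symbols and exon lengths came from GENCODE M21 and promoters from RefSeq GRCm38.p6. The ratio code was tested on simulated data. Python 3.11.15, numpy 2.4.6, pandas 2.3.3, scipy 1.17.1, matplotlib 3.10.9, R 4.3.3 and edgeR 4.0.16 (TMM only) were used.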

Additional observations from a re-analysis of the deposited data

Results flagged for a closer look

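The ratio of E11.5 G2VInt to G2VLo cells had opposite signs in different clusters. For the summed set the log2 ratio was 0.16 in HC1 cluster 7 and 0.20 in EC cluster 2, and -0.18 in HC1 cluster 8 and -0.26 in EC cluster 1. The signs rest on small values: HC1 cluster 8 had 0.0666 with the upper library numbers and -0.0355 by the clustering of all cells, and with TMM factors HC1 cluster 7 had 0.0466 and EC cluster 2 had 0.0491. The difference between clusters was not tested, since each gate is 1 sample.

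Ccne1 had a log2 ratio of 0.80 in HC1 cluster 7, -0.90 in HC1 cluster 8 and -0.99 in EC cluster 1. Clspn had 0.88 in HC1 cluster 7 and -0.82 in EC cluster 1. These differences were not tested either.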

How the results depend on the processing

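Of 69 summed log2 ratios under 7 alternative settings, 68 kept their direction. The exception was G2VInt over G2VLo in HC1 cluster 8, which was 0.0666 with the upper library numbers; the cause was not tested. Every list of 10 values below follows the order G2VInt over G2VLo in HC1 cluster 7, HC1 cluster 8, EC cluster 1 and EC cluster 2, CD27+ over G2VLo, E11 over E10, E11.5 over E11, HC1 over EC, HC2 over HC1 and U1 over HC1. The mean CPM per cell gave 0.18, -0.0504, -0.25, 0.20, -0.41, -0.0928, -0.10, 0.57, 0.0605 and -0.73. Leaving out mitochondrial genes gave 0.11, -0.23, -0.31, 0.14, -0.39, -0.16, -0.09, 0.52, 0.26 and -0.71. TMM factors gave 0.0466, -0.29, -0.35, 0.0491, -0.38, -0.21, -0.0433, 0.34, 0.32 and -0.33. Lower library numbers gave 0.21, -0.39, -0.25, 0.24, -0.55, -0.17, -0.10, 0.48, 0.25 and -0.56. Upper library numbers gave 0.10, 0.0666, -0.26, 0.15, -0.32, -0.17, -0.0862, 0.58, 0.24 and -0.93. The median of members gave 0.14, -0.16, -0.32, 0.20, -0.36, -0.14, -0.13, 0.57, 0.22 and -0.78. The clustering of all cells, without the CD27+ comparison that already uses it, gave 0.29, -0.0355, -0.0924, 0.14, -0.12, -0.13, 0.56, 0.25 and -0.76.

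Of 50 counts of members at least 1.5-fold apart under 5 alternative settings, 38 stayed within 1.5 times. By mean CPM per cell the count was 1 for E11.5 over E11 and 2 for HC2 over HC1. With TMM factors it was 1 for E11.5 over E11, 8 for HC1 over EC and 7 for HC2 over HC1. With lower library numbers it was 9 in HC1 cluster 7, 15 in HC1 cluster 8, 5 in EC cluster 2 and 1 for E11 over E10, and with upper numbers 10 in HC1 cluster 8, 1 in EC cluster 2 and 11 for CD27+ over G2VLo. The sets split by library number hold fewer cells, and why their counts moved was not tested. Dropping the filter on low values could not change a count, since all 45 members pass it. Counting Pcna with Pcna-ps2, chosen after seeing the data, turned the direction of Pcna in none of the 10 comparisons. No paired analysis was possible because no embryo, litter or sort shared by the groups is named. Each group is 1 sample, so no replicate could be left out, and gate, depth and library range cannot be told apart between G2VInt and G2VLo, nor day and library range between the G2VInt groups.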
